A study of Mus musculus with 17 samples.

Results

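Open chromatin at 9 serotonin receptor genes (Htr1a, Htr1b, Htr1d, Htr1f, Htr2a, Htr3a, Htr4, Htr6 and Htr7) was compared across 17 ATAC-seq libraries of nucleus accumbens neurons. In ATAC-seq a transposase cuts and tags DNA that is not covered by nucleosomes, so a peak of cuts marks an accessible region. A region belonged to a receptor locus when a peak of any library overlapped the GENCODE gene body extended by 20 kb on each side. The loci held 9 of 21755 protein-coding genes and 122 of 281189 merged regions. Of these, 71 were kept because at least 2 libraries of 1 group had called them, among 147420 kept regions genome-wide. Of the 51 regions not kept, 34 came from 1 library.

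Nuclei positive for the neuronal protein NeuN were sorted from both accumbens of C57BL/6 mice (C57BL/6J in the methods) aged 52 to 54 days, with no genetic alteration in the labels. Females in diestrus (the low-estrogen stage of the cycle), females in proestrus (the high-estrogen stage) and males were controls or were killed 1 hour after 10 mg/kg cocaine given intraperitoneally. Per the methods, controls were given no cocaine and formed the baseline time point, and no vehicle injection is described for them. What is called a cocaine effect below therefore cannot be told apart from an effect of the injection or of the 1 hour wait. Each of the 4 female groups and the male controls had 3 libraries, and the male cocaine group had 2. A library pooled 3 animals and counts as 1 biological replicate, and the stage of diestrus cocaine library 2 rests on its title because its stage label is not filled in.

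Libraries held 75458 to 157005 peaks. The male cocaine libraries had the fewest (87707 and 75458, against 134653 to 150009 in male controls), and diestrus cocaine library 1 the most. The background pileup, the number of reads expected at a site by chance and a measure of relative depth, lay between 6.26 and 9.55. The smallest summit pileup behind a call at a receptor locus was 16 reads, and a missing call means not called at this depth. All libraries called the promoters of 4 of 4 neuronal and 7 of 7 medium spiny neuron markers (among them Drd1, Drd2 and Ppp1r1b), and 4 of 8 glial and vascular promoters (Gfap, Cx3cr1, C1qa and Cldn5) were called in none. Of the other 4, the oligodendrocyte-lineage genes Mbp, Pdgfra and Mog were called in 17, 16 and 1 libraries, and the astrocyte gene Aqp4 in all 3 diestrus cocaine, 1 proestrus cocaine and no other libraries. Of 5 cortical excitatory neuron promoters, 5 were called in every male control library, 2 in both male cocaine libraries, 1 or 2 in diestrus controls, 3 in diestrus cocaine and proestrus control, and 3 or 4 in proestrus cocaine libraries.

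Serotonin reaches the accumbens from the raphe nuclei and acts on the medium spiny neurons, on interneurons and on incoming axons. The Htr1 receptors couple to inhibitory Gi/o proteins and lower cAMP, Htr2a couples to Gq and releases calcium, Htr4, Htr6 and Htr7 couple to Gs and raise cAMP, and Htr3a is a subunit of a cation channel. Cocaine blocks the serotonin transporter along with the dopamine and noradrenaline transporters, so it raises serotonin outside cells.

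Regions are named by the distance of the summit from the annotated start of the gene, with plus in the direction of transcription. The sequences below come from some of the loci reported, and no sequence of the Htr4 locus is printed. They were read from mm10 (GRCm38), on the plus strand unless stated, 60 bases to each side of the summit. Capitals mark an AP-1 motif, the binding site of Fos and Jun dimers (TGACTCA or TGAGTCA, which are the same site on opposite strands). The first pair is shown for its AP-1 motif at Htr1f, the next 3 because their calls separated cocaine from control libraries, and the rest because their fold enrichment passed a test. The last is the RefSeq sequence (GRCm38.p6, minus strand) of the 250 bases before the start of Htr6.
Htr1f +172.3 kb, chr16:64933451-64933571: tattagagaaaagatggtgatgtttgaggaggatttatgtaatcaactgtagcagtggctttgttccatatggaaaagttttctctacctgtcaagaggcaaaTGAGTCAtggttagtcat
Htr1f +35.8 kb, chr16:65070000-65070120: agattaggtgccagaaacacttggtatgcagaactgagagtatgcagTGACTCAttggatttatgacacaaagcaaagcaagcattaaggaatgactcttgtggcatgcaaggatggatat
Htr1a -1.9 kb, chr13:105441659-105441779: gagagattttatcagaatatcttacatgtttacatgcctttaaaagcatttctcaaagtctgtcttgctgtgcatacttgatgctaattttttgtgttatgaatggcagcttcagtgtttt
Htr1b +11.0 kb, chr9:81622721-81622841: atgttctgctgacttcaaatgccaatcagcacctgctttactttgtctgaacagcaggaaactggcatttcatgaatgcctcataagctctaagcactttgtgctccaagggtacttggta
Htr1d -1.9 kb, chr4:136421549-136421669: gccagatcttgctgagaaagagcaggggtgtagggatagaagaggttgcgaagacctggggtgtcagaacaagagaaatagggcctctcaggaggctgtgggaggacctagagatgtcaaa
Htr1f +29.9 kb, chr16:65075848-65075968: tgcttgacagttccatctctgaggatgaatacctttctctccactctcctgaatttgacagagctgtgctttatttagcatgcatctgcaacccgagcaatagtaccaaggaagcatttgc
Htr2a +2.7 kb, chr14:74643452-74643572: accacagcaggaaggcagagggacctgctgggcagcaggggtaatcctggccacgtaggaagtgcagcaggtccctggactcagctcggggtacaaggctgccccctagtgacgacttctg
Htr6 +7.7 kb, chr4:139067789-139067909: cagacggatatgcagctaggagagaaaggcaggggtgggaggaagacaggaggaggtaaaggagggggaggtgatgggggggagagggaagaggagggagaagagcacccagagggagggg
Htr6 +20.9 kb, chr4:139054636-139054756: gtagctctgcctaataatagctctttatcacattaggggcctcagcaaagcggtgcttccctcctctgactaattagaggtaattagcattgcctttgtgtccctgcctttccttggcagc
Htr6 upstream of the start, chr4:139075571-139075820: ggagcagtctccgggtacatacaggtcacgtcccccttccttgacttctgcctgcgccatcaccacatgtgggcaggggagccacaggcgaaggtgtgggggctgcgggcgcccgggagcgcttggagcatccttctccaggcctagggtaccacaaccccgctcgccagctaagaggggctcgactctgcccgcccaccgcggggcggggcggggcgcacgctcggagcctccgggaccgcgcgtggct

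The 71 kept regions were mostly intronic. Of them 36 overlapped only introns of the gene, 9 came within 1 kb of the start of a protein-coding transcript (promoter regions), 12 lay upstream, 12 downstream and 2 overlapped a UTR. They ranged from 1.93 regions per 100 kb at Htr3a to 25.7 per 100 kb at Htr6, a compact gene with neighbours on both sides. Of the 71, 17 were called in all 17 libraries, 13 in 14 to 16, 27 in 4 to 13 and 14 in 2 or 3. The receptor regions resembled all kept regions in median width (757 against 714 bp), GC content (43.0% against 44.4%), median fold enrichment (3.23 against 3.19) and the share called in every library (23.9% against 25.0%). Fold enrichment is the deposited ratio of the summit pileup to the background of the same library.

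Of the 71 receptor regions, 3 (4.23%) had an AP-1 motif at most 100 bp from the summit, against 10.6% of all kept regions. The 3 regions were Htr1f +172.3 kb, Htr1f +35.8 kb and Htr4 +170.7 kb. The cAMP response element (TGACGTCA, its own reverse complement, which contains no AP-1 motif) lay in 1 receptor region (1.41%), the intronic Htr4 +1.9 kb, and in 0.531% of all kept regions. A match of letters does not show binding.

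Promoters differed in how reliably they were called. Those of Htr1b, Htr2a, Htr4, Htr6 and Htr7 were called in all 17 libraries, and those of Htr1a, Htr1d and Htr1f in 16. No promoter region of Htr3a was called in any library. The highest median fold enrichment was at Htr1b (14.3), followed by Htr6 (6.16), Htr2a (4.91), Htr4 (4.07), Htr7 (3.45) and Htr1f (3.24). Htr1a (3.13, at -0.9 kb) and Htr1d (3.10) were lowest. This is the height of the peak at its summit and does not depend on gene length. The summit of the Htr2a region lay at +2.7 kb, and those of the other promoter regions between -0.9 and +1.2 kb. The ranges over libraries of Htr2a, Htr4, Htr7, Htr1f, Htr1a and Htr1d overlapped. The range of Htr6 (3.86 to 8.90) overlapped those of Htr2a, Htr4, Htr7, Htr1f and Htr1d. The lowest Htr1b value (12.6) was above the highest value at any other promoter (8.90, Htr6).

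**Figure D1:**
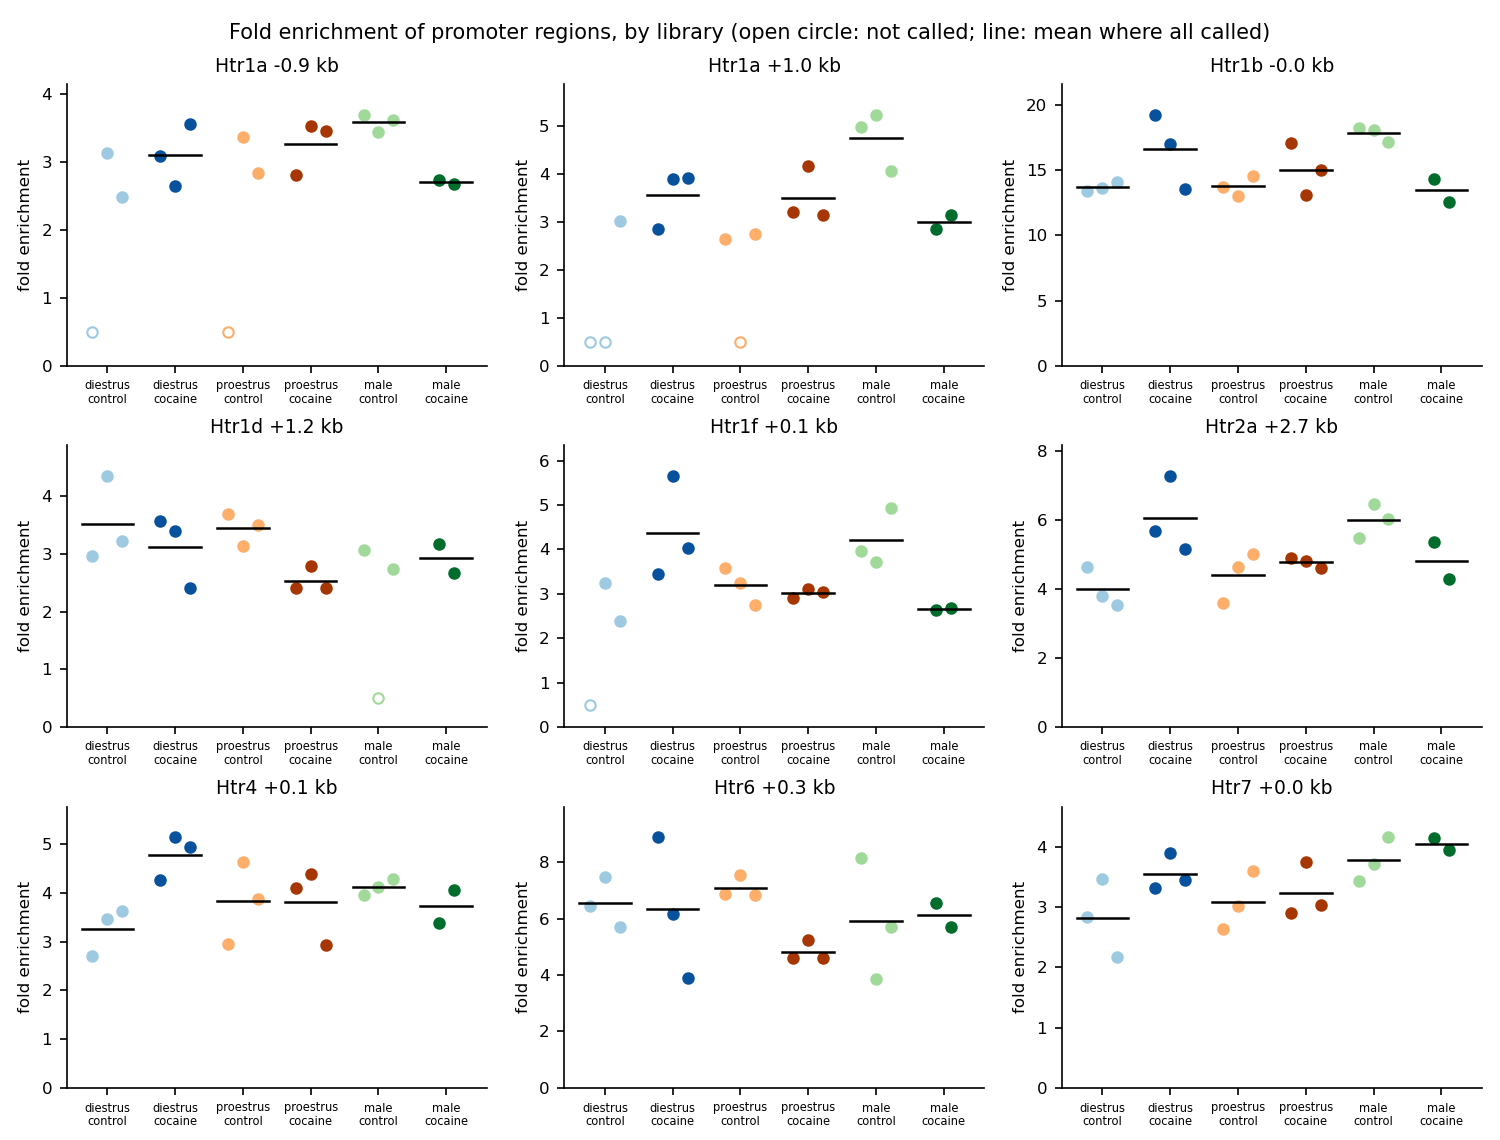
Fold enrichment (linear axis from 0) of the kept promoter regions of 8 receptor genes in each library, by group. Filled points are called libraries, open circles near the bottom mark libraries with no call and have no value, and lines are means of groups in which every library was called. Htr1b lies between 12.6 and 19.2 in every library, and the other promoters lie below 9.

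Cocaine and control libraries were compared first by calls. Over the 8 cocaine and 9 control libraries, Fisher's exact test (two-sided) on 27 receptor regions gave 0 with an adjusted p under 0.05, as it gave 0.0% of 64304 regions genome-wide. At an unadjusted p under 0.05 there were 4 of 27, against 13% of all tested regions. These were Htr1d -1.9 kb, Htr1f +172.3 kb, Htr6 -6.0 kb and Htr1b +11.0 kb.

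A region was then counted as gained in a sex and stage when every cocaine library and no control library called it, and as lost in the converse case. No p is given, since 3 libraries against 3, or 2 against 3, cannot give one below 0.1, and fewer nuclei with an open region and less opening per nucleus cannot be told apart in these pools. In diestrus 0 of 71 regions were gained and 0 lost (background 1.16% and 1.26% of all kept regions). In proestrus 1 was gained and 1 lost (1.41% each, background 2.45% and 1.64%). In males 2 were gained (2.82%, background 1.66%) and 12 lost (16.9%, background 16.8%). The share of losses in males was thus that of the whole genome, where the male cocaine libraries had the fewest peaks. With the same number of strongest peaks in each library 2 receptor regions were lost instead of 12, with no share over all regions given for that setting. The part of peak number in these losses was not tested. The loss of cortical neuron promoter calls between male control and male cocaine libraries (5 against 2 of 5) moved with these losses, and its part in them was not tested.

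Called regions per locus were compared over all libraries within the 3 sex and stage strata by an exact permutation test (two-sided, 4000 assignments). None of the 9 loci had an adjusted p under 0.05, as for 0.0% of 18234 loci. At an unadjusted p under 0.05 there were 3, Htr1a, Htr1d and Htr6, a share close to the 33.0% of all loci. Cocaine libraries had on average 0.889 more called regions at Htr1a (p = 0.004, adjusted p = 0.0538, exact permutation test). They had 1.33 fewer at Htr1d (difference -1.33, p = 0.005, adjusted p = 0.056, exact) and 3 fewer at Htr6 (difference -3, p = 0.013, adjusted p = 0.0759, exact). Without diestrus cocaine library 1 these 3 loci passed (differences of 0.889, -1.39 and -3.78, adjusted p = 0.0437, 0.0263 and 0.016 by the same exact test). No share over all loci is given for that setting. With the same number of strongest peaks in each library none of the 3 passed (differences of 0.889, -0.556 and -2.61, adjusted p = 0.186, 0.607 and 0.186, same test).

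**Figure D2:**
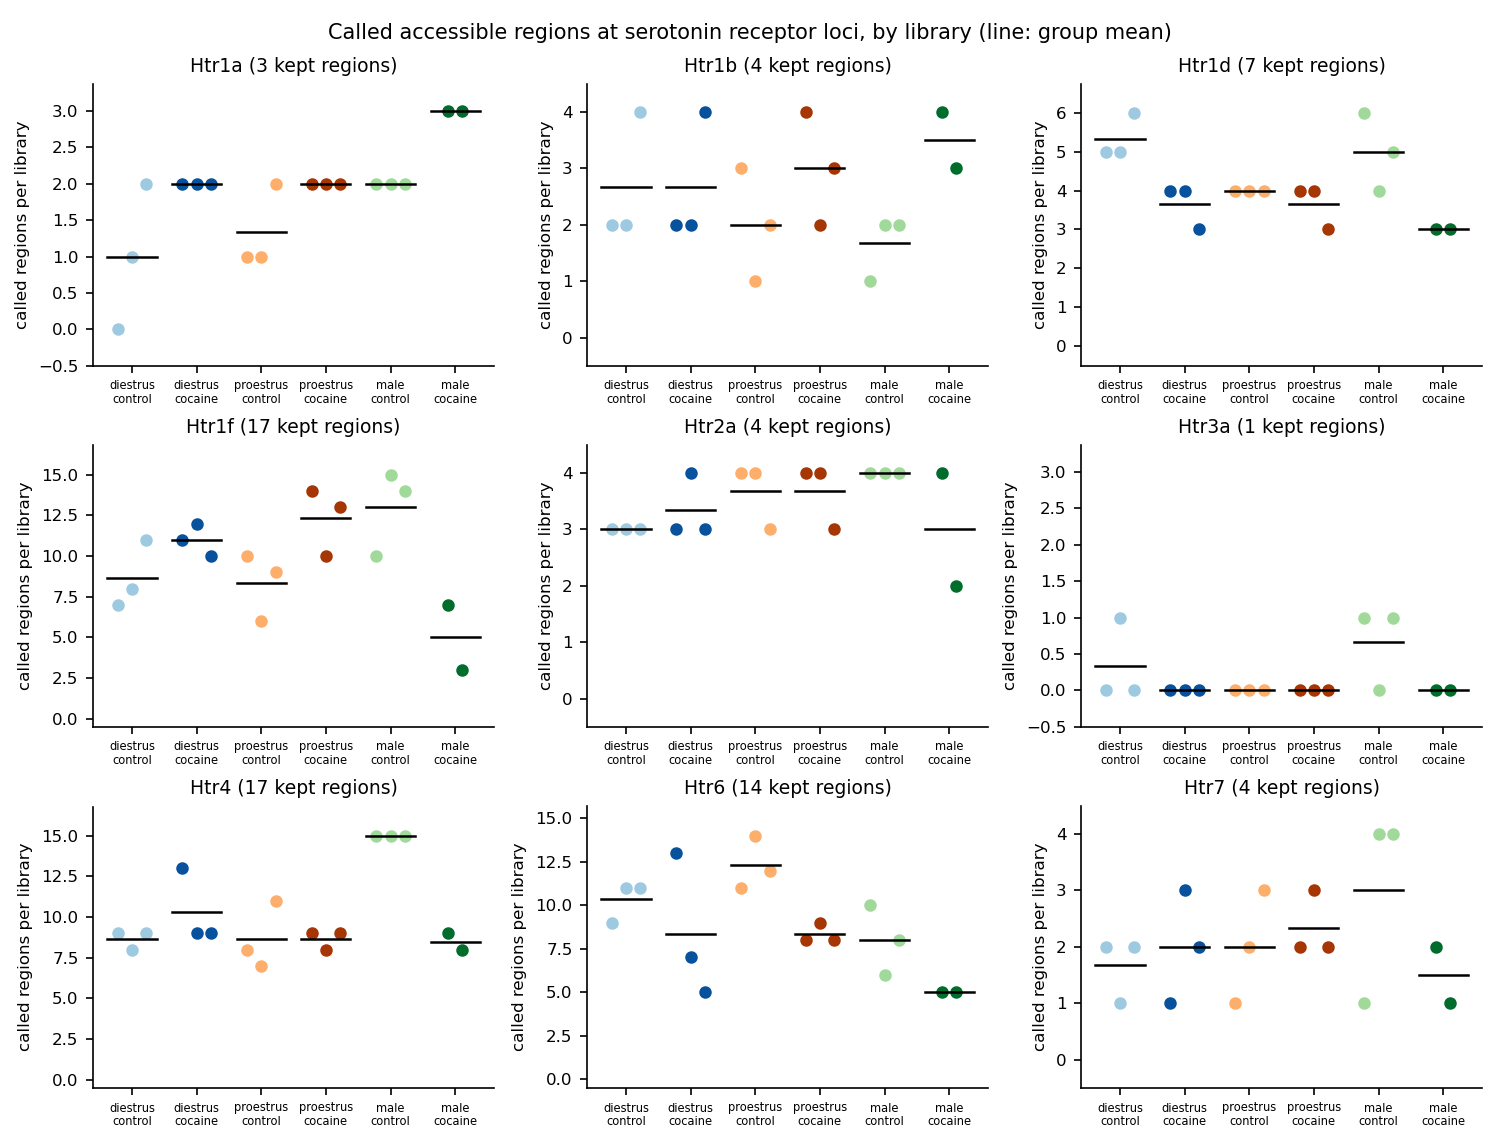
Number of kept regions called in each library (points) at the 9 receptor loci, by group, with lines at group means. Htr6 has 5 called regions in both male cocaine libraries and 11 to 14 in proestrus controls, and Htr4 has 15 in all 3 male control libraries against 7 to 13 elsewhere.

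Fold enrichment was compared with limma on quantile-normalized log2 values at the 17 receptor regions called in every library, with Benjamini-Hochberg adjustment over all 36847 such regions. In diestrus 3 of 17 passed an adjusted p of 0.05 (background 9.24%), in proestrus 2 (4.25%), in males 0 (8.0%, with 4 of 17 at an unadjusted p under 0.05, beside 24.3% of all regions) and for the mean of the 3 effects 3 (13.6%). The median log2 difference over the 17 regions was -0.24 in diestrus, -0.39 in proestrus and 0.09 in males, beside medians over all regions of 0.00, 0.00 and 0.01. The cocaine effect differed between males and females at 3 regions (16.5%), which lay at Htr6. It differed between diestrus and proestrus at 0 of 17 (0.0%, with 2 at an unadjusted p under 0.05, beside 7.19% of all regions).

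**Figure D3:**
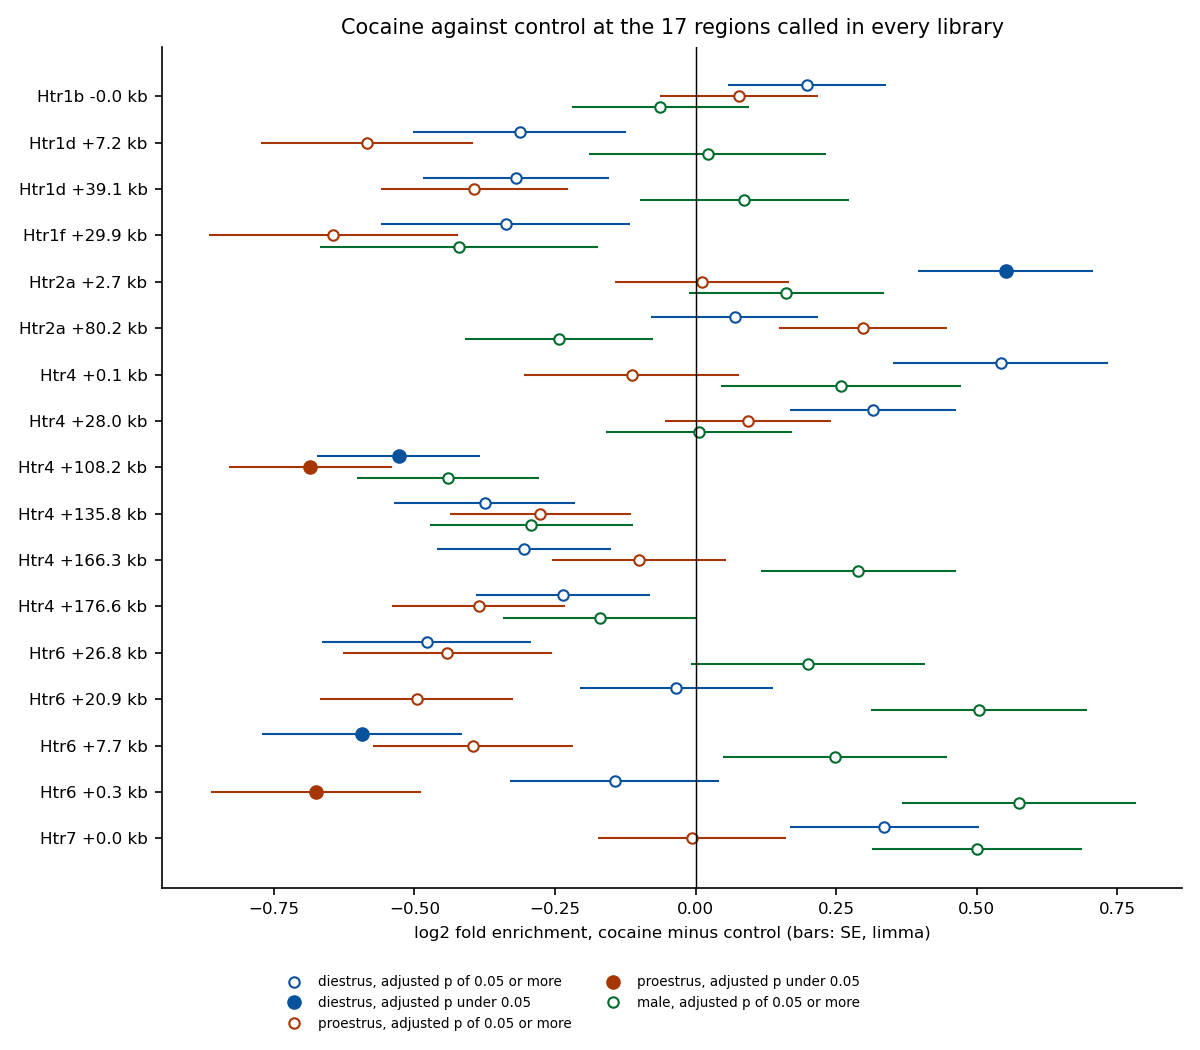
Log2 difference in quantile-normalized fold enrichment, cocaine minus control, at the 17 receptor regions called in every library (points, limma estimate; bars, SE), for diestrus, proestrus and males. Filled points passed an adjusted p of 0.05. At the 4 Htr6 regions the male estimates lie above 0 and the diestrus and proestrus estimates below it, while at Htr4 +108.2 kb the 3 estimates lie between -0.68 and -0.44.

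Among the Gi/o-coupled receptors, Htr1a encodes the autoreceptor of serotonin neurons, which is also found on their targets. Htr1a (ENSMUSG00000021721.5, plus strand, chr13:105443639-105448122) had 3 kept regions. The promoter region at -0.9 kb was called in 15 libraries with a fold enrichment of 2.49 to 3.70, and the other promoter region, at +1.0 kb over the single exon, in 14. The second was called in 1 of 3 diestrus controls (3.01) and 2 of 3 proestrus controls (2.64 and 2.75), and was called in all 8 cocaine libraries at 2.84 to 4.17. It was highest in male controls (4.97, 5.23 and 4.06), whose range overlapped that of the proestrus cocaine group at library 2 (4.17).

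The third region of Htr1a, at -1.9 kb (chr13:105441462-105442006, 32.5% GC), was called in male cocaine libraries 1 and 2 (fold enrichment 2.62 and 2.79) and in none of the other 15. It was the one region gained in males at Htr1a, and both calls rested on a summit pileup of 23 reads. Among libraries with at least 1 call at the locus, male cocaine libraries had 3 called regions each, the other cocaine libraries 2 each, and controls 1 or 2.

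Htr1b encodes a receptor on axon terminals, including those of medium spiny neurons, where it lowers transmitter release. The Htr1b promoter region (chr9:81624760-81636086) was 11327 bp wide and covered the whole gene (ENSMUSG00000049511.5, minus strand, chr9:81628291-81633828). Its fold enrichment was 13.4, 13.6 and 14.1 in diestrus controls and 19.2, 16.98 and 13.6 in diestrus cocaine libraries. Proestrus controls had 13.7, 12.996 and 14.50 and proestrus cocaine libraries 17.02, 13.05 and 14.98. Male controls had 18.2, 18.04 and 17.1, above the male cocaine values of 14.3 and 12.6. After normalization no difference at this region passed, with log2 differences of 0.20 ± 0.14 (SE) in diestrus, 0.08 ± 0.14 in proestrus and -0.06 ± 0.16 in males (adjusted p = 0.357, 0.773 and 0.843, limma).

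The downstream region Htr1b +11.0 kb (chr9:81622574-81622967) was the other region gained in males. Its fold enrichment was 3.17 and 2.44 in the male cocaine libraries and it was called in no male control library. Proestrus cocaine libraries 1 and 4 (2.40 and 2.41), diestrus cocaine library 3 (2.64) and diestrus control library 3 (2.59) also called it, so 5 cocaine and 1 control library did (p = 0.0498, adjusted p = 0.382, Fisher's exact test).

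Htr1d encodes a close relative of Htr1b with the same coupling. At Htr1d (ENSMUSG00000070687.11, plus strand, chr4:136423524-136444398) the region at -1.9 kb (chr4:136421386-136421909) had the lowest Fisher p of the 27 regions tested. All 9 control libraries called it, with 3.49, 2.90 and 3.94 for diestrus. The proestrus values were 3.17, 3.48 and 2.65 and the male values 3.06, 2.89 and 3.40. Of the cocaine libraries, diestrus 1 and 2 called it (2.85 and 3.14) and the other 6 did not. It was lost in proestrus and in males, and over all libraries had p = 0.00226 and an adjusted p of 0.216 by Fisher's exact test.

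Further out, Htr1d +31.5 kb was called in male controls (2.93, 2.62 and 3.18) and in proestrus cocaine libraries 1 and 2 (2.70 and 2.35), and was lost in males. Htr1d -11.0 kb and Htr1d -6.8 kb were called in 3 and 2 control libraries and in no cocaine library. The promoter region, +1.2 kb, was called in 16 libraries at 2.40 to 4.35, and the intronic +7.2 kb in all 17 at 2.72 to 5.71. The highest region of the locus, +39.1 kb (chr4:136461782-136463420, median 6.35), lay at the start of the neighbouring gene 6030445D17Rik. Neither +7.2 kb nor +39.1 kb passed a limma test of cocaine.

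Htr1f, which encodes another Gi/o-coupled receptor, spans 181.1 kb on the minus strand (ENSMUSG00000050783.5, chr16:64924729-65105854) and held 17 kept regions, 15 of them intronic. Called regions per library were 7, 8 and 11 in diestrus controls and 11, 12 and 10 with cocaine, and 10, 6 and 9 in proestrus controls and 14, 10 and 13 with cocaine. Male controls had 10, 15 and 14 and male cocaine libraries 7 and 3, so the male groups did not overlap and lay in the opposite order to the female ones. Over all strata the difference was -0.556 (p = 0.783, adjusted p = 0.918, exact permutation test). With the same number of strongest peaks in each library it was 1.78, and without male cocaine library 2 it was 0.111, and neither passed (adjusted p = 0.512 and 1, exact).

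The intronic region Htr1f +172.3 kb (chr16:64933285-64933688), with the AP-1 motif printed above, was called in 5 cocaine libraries and no control library (p = 0.00905, adjusted p = 0.273, Fisher's exact test). Proestrus cocaine libraries had a fold enrichment of 2.50, 2.99 and 2.51, diestrus cocaine libraries 1 and 2 had 2.73 and 3.27, and diestrus cocaine library 3 and both male cocaine libraries did not call it. It was the one receptor region gained in proestrus. The other AP-1 region of the gene, +35.8 kb, was called in every library but male cocaine 2. Its fold enrichment was 4.65, 4.35 and 4.25 in diestrus controls and 6.05, 5.28 and 5.28 with cocaine, which did not overlap, while the proestrus groups (4.01, 4.06 and 4.55, against 6.21, 2.99 and 5.97) overlapped. Male controls had 3.19, 4.41 and 3.62, all above the 2.84 of male cocaine library 1.

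The highest region of Htr1f was +29.9 kb (chr16:65075425-65076730, intron, median 6.84). It was 6.84, 7.03 and 7.68 in diestrus controls and 7.48, 4.91 and 5.17 with cocaine. Proestrus values were 8.45, 6.03 and 7.30 without and 7.01, 2.99 and 5.97 with cocaine. Male controls had 7.14, 5.92 and 7.79, and male cocaine libraries 3.61 and 3.84. The male groups did not overlap, and the lowest value was that of proestrus cocaine library 2. The mean cocaine effect was -0.47 ± 0.13 (log2, SE, adjusted p = 0.0231, limma), a 1.38-fold lower value, and no single sex or stage passed. It no longer passed without diestrus cocaine library 2, proestrus control library 1, male control library 3 or male cocaine library 1 (log2 differences of -0.41, -0.42, -0.43 and -0.44, adjusted p = 0.054, 0.0524, 0.05003 and 0.0705, limma).

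Of the other Htr1f regions lost in males, +171.7, +131.0, +101.4, +83.3 and +76.0 kb, the one at +101.4 kb was called in 14 of the 15 other libraries, at 2.64 to 4.53. By contrast +131.0 kb was called in the 3 male controls alone (2.80, 2.75 and 2.63), and +76.0 kb in them (2.93, 3.58 and 3.62) and in proestrus cocaine library 1 (2.90). Htr1f +83.3 kb reached 4.59, 3.72 and 6.48 in male controls and 2.70 to 3.71 in the 3 other libraries that called it. The promoter region was called in 16 libraries at 2.39 to 5.66, highest in diestrus cocaine library 2.

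**Figure D4:**
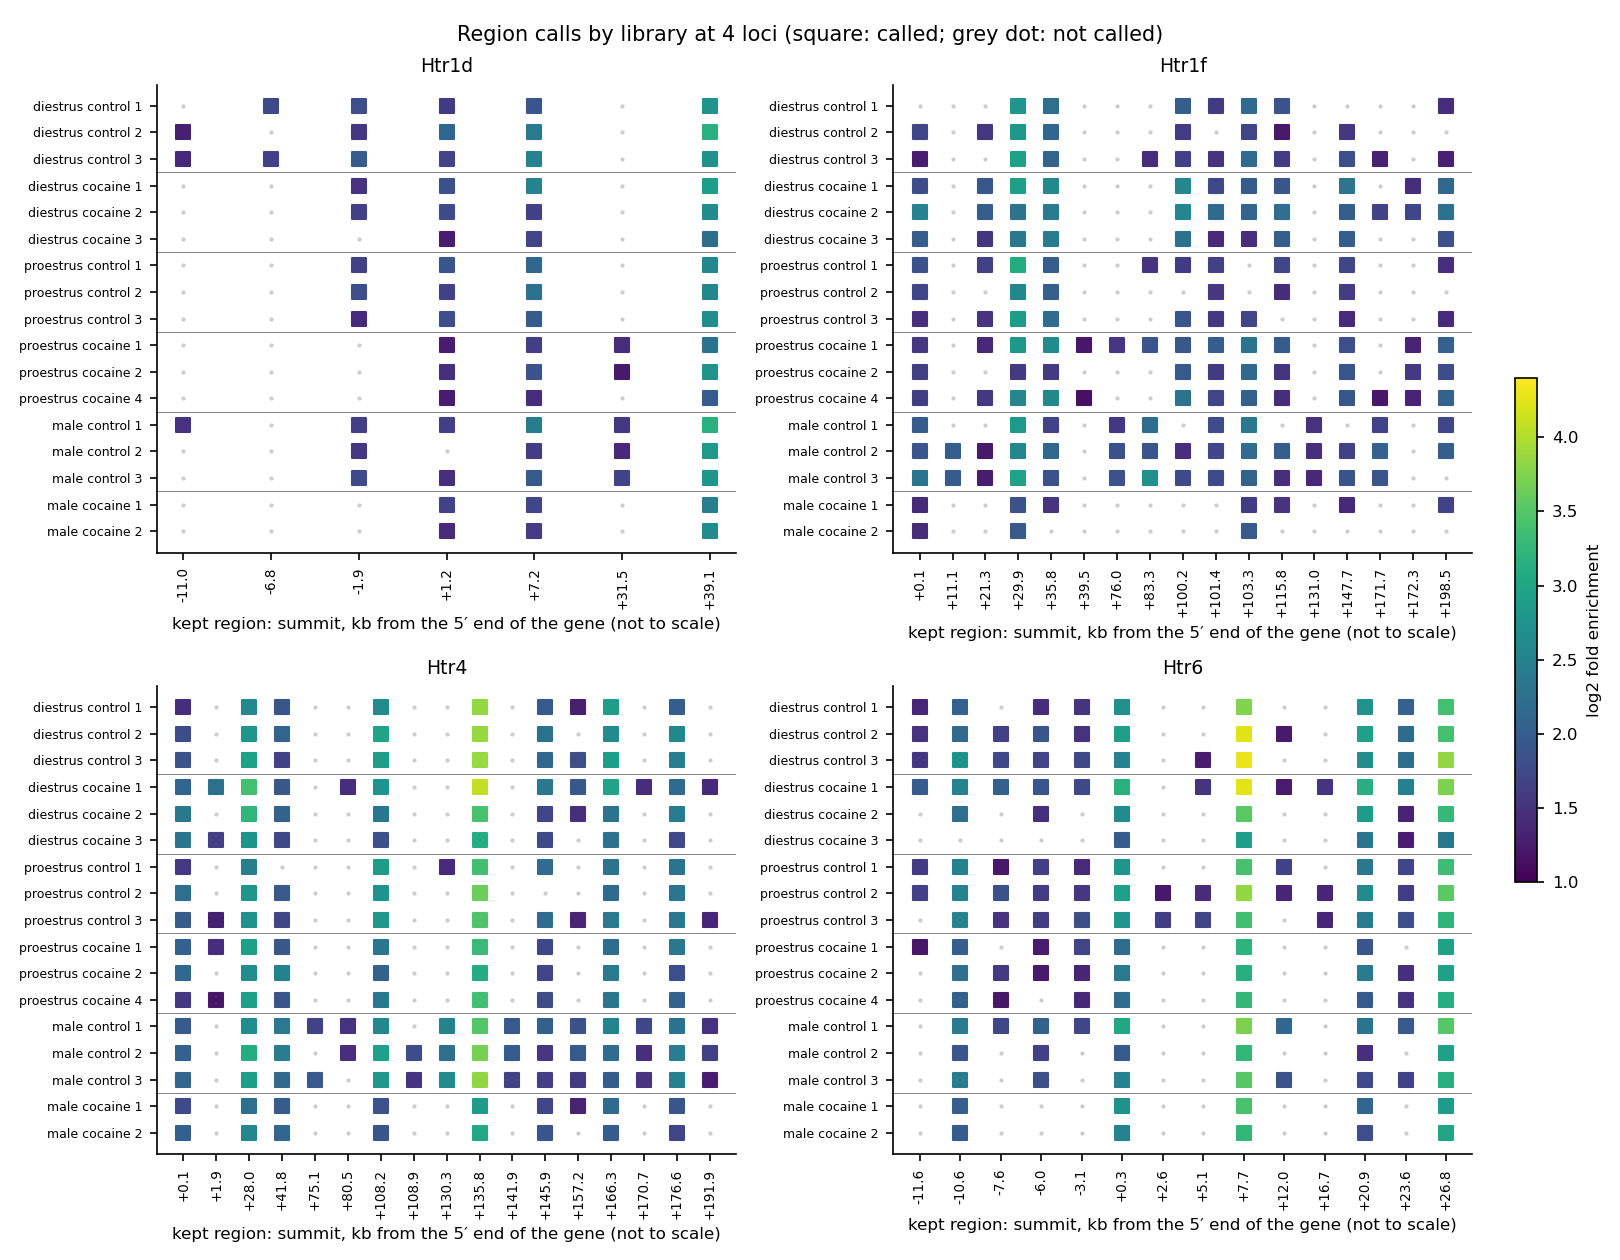
Calls and log2 fold enrichment (colour, log scale) of each kept region at Htr1d, Htr1f, Htr4 and Htr6 in the 17 libraries. Squares are called, dots are not, and columns are ordered along the gene but not drawn to scale. Htr1d -1.9 kb is filled in all 9 control rows and 2 of 8 cocaine rows, and several Htr4 columns are filled in male control rows alone.

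The Gq-coupled Htr2a receptor is the target of the classical psychedelics. Its promoter region (chr14:74640569-74644211, 3643 bp, summit in the gene at +2.7 kb) gave the one rise with cocaine that passed within a sex and stage (ENSMUSG00000034997.5, plus strand, chr14:74640840-74709494). Diestrus controls had a fold enrichment of 4.65, 3.80 and 3.53 and diestrus cocaine libraries 5.70, 7.30 and 5.17, with no overlap (means 3.99 ± 0.58 and 6.05 ± 1.11, SD, n = 3). In proestrus the values were 3.59, 4.64 and 5.02 without and 4.91, 4.81 and 4.61 with cocaine. Male controls had 5.48, 6.47 and 6.04 and male cocaine libraries 5.36 and 4.30. The values of the proestrus groups overlapped, and those of the male groups lay in the opposite order to the diestrus ones before normalization.

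In limma the Htr2a promoter region rose in diestrus by 0.55 ± 0.16 (log2, SE, adjusted p = 0.0321), 1.47-fold. The estimates in proestrus (0.01 ± 0.16, adjusted p = 0.974) and males (0.16 ± 0.17, adjusted p = 0.604) did not pass, and no difference between these effects passed either. The diestrus call was lost without diestrus control library 2 or 3 or diestrus cocaine library 2 or 3 (log2 differences of 0.52, 0.46, 0.47 and 0.51, adjusted p = 0.0971, 0.139, 0.155 and 0.162). Of the 5 cortical excitatory promoters, 3 were called in diestrus cocaine and 1 or 2 in diestrus control libraries. The fold enrichment of the one called throughout, Slc17a7, fell in diestrus (log2 difference -0.60, adjusted p = 0.0260). Of the 7 medium spiny neuron promoters, 2 rose in diestrus, Penk (0.88, adjusted p = 0.0104) and Tac1 (0.69, adjusted p = 0.0167), and 0 fell. Rbfox3, which encodes NeuN, fell (-1.05, adjusted p = 0.0115). The part of any of these marker changes in the Htr2a result was not tested. The highest Htr2a region, +80.2 kb downstream (median 7.70), lay between 4.92 and 9.92 and passed no test.

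Htr2a +18.9 kb, in an intron, was 8.29, 5.78 and 6.70 in male controls. In the 6 other libraries that called it (proestrus control 1 and 2, proestrus cocaine 1 and 2, diestrus cocaine 2 and male cocaine 1) it was 2.44 to 3.52, and no diestrus control called it. Male controls were thus apart from every other group at this region, as they were in cortical excitatory promoter calls, whose part was not tested.

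Htr3a, the channel subunit, had the fewest regions of the 9 loci (ENSMUSG00000032269.8, minus strand, chr9:48899213-48911099). It had 1 merged region, 16.9 kb from the start and downstream of the gene. Diestrus control library 2 (2.79) and male control libraries 1 and 3 (3.57 and 3.40) called it, and no cocaine library did.

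Among the Gs-coupled receptors, Htr4 held a region that was lower after cocaine in both female stages. The gene spans 172.4 kb (ENSMUSG00000026322.9, plus strand) on chromosome 18 from 62324204 to 62496577 and held 17 kept regions, 6 of them called in every library. The intronic region Htr4 +108.2 kb (62431922 to 62432873) had a fold enrichment of 6.20, 7.82 and 7.37 in diestrus controls and 6.77, 5.03 and 3.56 with cocaine. Proestrus libraries had 7.29, 6.73 and 7.01 without and 5.01, 4.17 and 5.13 with cocaine. Male controls had 5.99, 7.57 and 7.03 and male cocaine libraries 3.61 and 3.72. The proestrus groups and the male groups did not overlap, and in diestrus library 1 of the cocaine group lay within the control range.

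On the normalized log2 scale Htr4 +108.2 kb fell by 0.53 ± 0.14 (SE) in diestrus and by 0.68 ± 0.14 in proestrus (adjusted p = 0.029 and 0.0136, limma). The male estimate was -0.44 ± 0.16 (adjusted p = 0.0929). The mean of the 3 effects was -0.55 ± 0.09 (adjusted p = 0.000438), or 1.47-fold lower, and normalized values of the cocaine and control libraries did not overlap within any of the 3 pairs of groups. The mean effect passed under all 23 alternatives, with log2 values of -0.60 to -0.52. Among the marker promoters that passed in the mean effect, the cortical excitatory Slc17a7 (-0.41, adjusted p = 0.00706, limma) and Rbfox3, which encodes NeuN (-0.66, adjusted p = 0.00227), fell. The medium spiny neuron markers Penk (0.31, adjusted p = 0.0195) and Tac1 (0.34, adjusted p = 0.026) rose. The part of these changes in the Htr4 result was not tested. The diestrus call was lost without diestrus control library 2 or 3 or diestrus cocaine library 2 or 3 (-0.48, -0.51, -0.49 and -0.44, adjusted p = 0.0954, 0.0991, 0.126 and 0.176). The proestrus call was lost without proestrus control library 1 (-0.62, adjusted p = 0.0623).

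The highest Htr4 region, intronic +135.8 kb (62459289 to 62460603, median 10.9), was 14.46, 14.51 and 14.53 in diestrus controls and 16.98, 10.7 and 8.61 with cocaine. In proestrus it was 10.3, 12.4 and 10.9 without and 9.91, 8.45 and 10.4 with cocaine. In males it was 11.2, 12.9 and 14.3 without and 7.21 and 8.25 with cocaine. The mean effect was -0.31 ± 0.10 (log2, SE, adjusted p = 0.0338, limma), and no single sex or stage passed. This call depended on many libraries. It was lost without diestrus control 1 or 3, diestrus cocaine 2 or 3, proestrus control 1 or 2, proestrus cocaine 2, male control 3 or male cocaine 1, with log2 values between -0.32 and -0.27 and adjusted p-values of 0.0527 to 0.121.

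The Htr4 promoter region did not pass. It was 2.71, 3.46 and 3.63 in diestrus controls and 4.27, 5.16 and 4.94 with cocaine, which did not overlap (log2 difference 0.54 ± 0.19, SE, adjusted p = 0.0693, limma). Proestrus values were 2.96, 4.64 and 3.89 without and 4.11, 4.38 and 2.93 with cocaine. Male values were 3.95, 4.13 and 4.28 without and 3.39 and 4.07 with cocaine.

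At Htr4 the male controls also stood apart in calls. Male control libraries each called 15 of the 17 regions, against 7 to 11 in the other controls, 8 to 13 in female cocaine libraries and 9 and 8 in male cocaine libraries. Of all kept regions, every male control called 9.05% that no diestrus control, 10.5% that no proestrus control and 16.8% that no male cocaine library called. With the same number of strongest peaks in each library the cocaine difference at the locus was 0.222 instead of -1.61. Neither value passed (adjusted p = 0.916 and 0.352, exact permutation test). Htr4 +130.3 kb was 5.74, 4.68 and 6.26 in male controls, was called in proestrus control library 1 (2.64) and in no other. Htr4 +141.9 kb, in a UTR of an Htr4 transcript, was called in male controls alone (3.82, 3.86 and 3.18). Htr4 +170.7 kb, with an AP-1 motif, was 3.31, 2.75 and 2.85 in male controls and 2.73 in diestrus cocaine library 1. These 3 regions and Htr4 +191.9 kb, in the body of Fbxo38, were lost in males after cocaine. The 5 of 5 cortical excitatory promoters called in male controls moved with these calls, and their part in them was not tested.

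Htr6 encodes a Gs-coupled receptor that is abundant in the striatum, and its locus gave the most results. The gene (ENSMUSG00000028747.10, minus strand, chr4:139061108-139075570) is 14.46 kb long and the locus held 14 kept regions, 8 of them in the bodies of the neighbours Tmco4 and Nbl1. Called regions per library were 9, 11 and 11 in diestrus controls and 13, 7 and 5 with cocaine. They were 11, 14 and 12 in proestrus controls and 8, 9 and 8 with cocaine, and 10, 6 and 8 in male controls and 5 and 5 with cocaine. The proestrus and male groups did not overlap, and in diestrus library 1 of the cocaine group had more calls than any control. With the same number of strongest peaks per library the difference over strata was -2.61 (adjusted p = 0.186, exact permutation test) instead of -3.

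The Htr6 promoter region (chr4:139073531-139077166, 3636 bp) was 6.45, 7.48 and 5.71 in diestrus controls and 8.90, 6.16 and 3.91 with cocaine. In proestrus it was 6.86, 7.54 and 6.82 without and 4.61, 5.24 and 4.61 with cocaine. Male controls had 8.16, 3.86 and 5.71 and male cocaine libraries 6.56 and 5.70. The proestrus groups were clearly apart (means 7.08 ± 0.40 and 4.82 ± 0.37, SD, n = 3), and the diestrus and male groups overlapped. The promoter region fell by 0.68 ± 0.19 in proestrus (log2, SE, adjusted p = 0.0417, limma), 1.60-fold, and the estimates in diestrus (-0.14 ± 0.19, adjusted p = 0.636) and males (0.57 ± 0.21, adjusted p = 0.0885) did not pass. The proestrus call was lost without any of proestrus control 1, 2 or 3, proestrus cocaine 1 or 4, male control 3 or male cocaine 1 (log2 values of -0.72 to -0.61, adjusted p = 0.0505 to 0.14). It was also lost with the replicate number as a block (-0.73, adjusted p = 0.0807).

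The intronic region Htr6 +7.7 kb (chr4:139064310-139069224, 4915 bp) was the highest of the locus (median 10.7). It was 13.6, 18.8 and 19.6 in diestrus controls and 18.99, 11.7 and 7.35 with cocaine. In proestrus it was 10.7, 14.3 and 10.3 without and 9.21, 8.88 and 9.53 with cocaine, and in males 13.3, 9.50 and 11.3 without and 10.7 and 9.53 with cocaine. The proestrus groups did not overlap, and the others did. The diestrus difference was -0.59 ± 0.18 (log2, SE, adjusted p = 0.0404, limma), 1.51-fold lower, although diestrus cocaine library 1 lay within the range of the controls. It was lost without diestrus control 2 or 3, diestrus cocaine 2 or 3, male control 3 or male cocaine 2 (-0.59 to -0.43, adjusted p = 0.0505 to 0.25). Without diestrus cocaine library 1 it was -0.83 (adjusted p = 0.00162).

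On the normalized scale the cocaine effect at Htr6 differed between males and females. As the male effect minus the mean female effect, the log2 difference was 0.98 ± 0.25 (SE) at the promoter region, 0.77 ± 0.23 at +20.9 kb and 0.74 ± 0.24 at +7.7 kb (adjusted p = 0.0122, 0.0264 and 0.0353, limma). The fourth Htr6 region called throughout, +26.8 kb, had 0.66 ± 0.25 (adjusted p = 0.0652). At +20.9 kb (chr4:139054246-139055705, in the body of Tmco4) the fold enrichment was 6.71, 7.59 and 6.33 in diestrus controls and 8.78, 7.30 and 4.94 with cocaine. Proestrus libraries had 5.07, 6.15 and 5.21 without and 3.71, 5.24 and 3.87 with cocaine, and males 4.97, 2.75 and 3.40 without and 4.37 and 3.49 with cocaine. Male control library 2 had the lowest value of all, and the male range overlapped that of the proestrus cocaine and diestrus cocaine libraries.

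The differences between the sexes at Htr6 rested on few male libraries. The call at the promoter region was lost without male control 2 (0.75, adjusted p = 0.051) or male cocaine 1 (0.92, adjusted p = 0.0721), and that at +20.9 kb without male control 2 or 3 or male cocaine 1 or 2 (0.60 to 0.95, adjusted p = 0.0519 to 0.157). The call at +7.7 kb was lost without 10 of the 17 libraries, which were the 4 named, diestrus control 2 and 3, diestrus cocaine 2 and 3, proestrus control 2 and proestrus cocaine 1 (0.64 to 0.77, adjusted p = 0.0502 to 0.133). With the replicate number as a block, +20.9 kb (0.72, adjusted p = 0.0546) and +7.7 kb (0.75, adjusted p = 0.0512) were lost and the promoter region passed.

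Without cocaine, male libraries had lower values than female ones at several Htr6 regions, a comparison that uses the same male controls as the effects above. Against diestrus controls, the log2 difference was -1.03 ± 0.17 (SE) at +20.9 kb, -0.80 ± 0.18 at +7.7 kb and -0.55 ± 0.19 at +26.8 kb (adjusted p = 0.000296, 0.00322 and 0.0357, limma). Against proestrus controls it was -0.91 ± 0.17 at +20.9 kb, -0.69 ± 0.19 at the promoter region and -0.56 ± 0.19 at +26.8 kb (adjusted p = 0.0015, 0.017 and 0.0471). The +20.9 kb differences (2.04-fold and 1.88-fold) and that at +7.7 kb held without any 1 library. The one at +26.8 kb against diestrus was lost without diestrus control 1 or 3 or male control 2 or 3 (-0.58 to -0.41, adjusted p = 0.0598 to 0.185). Against proestrus it was lost without any proestrus control, diestrus control 1, diestrus cocaine 2, proestrus cocaine 1, male control 2 or 3 or either male cocaine library (-0.66 to -0.44, adjusted p = 0.0518 to 0.194). The one at the promoter region was lost without proestrus control 1 or 2 or male control 2 (-0.68, -0.66 and -0.46, adjusted p = 0.0508, 0.0618 and 0.126).

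**Figure D5:**
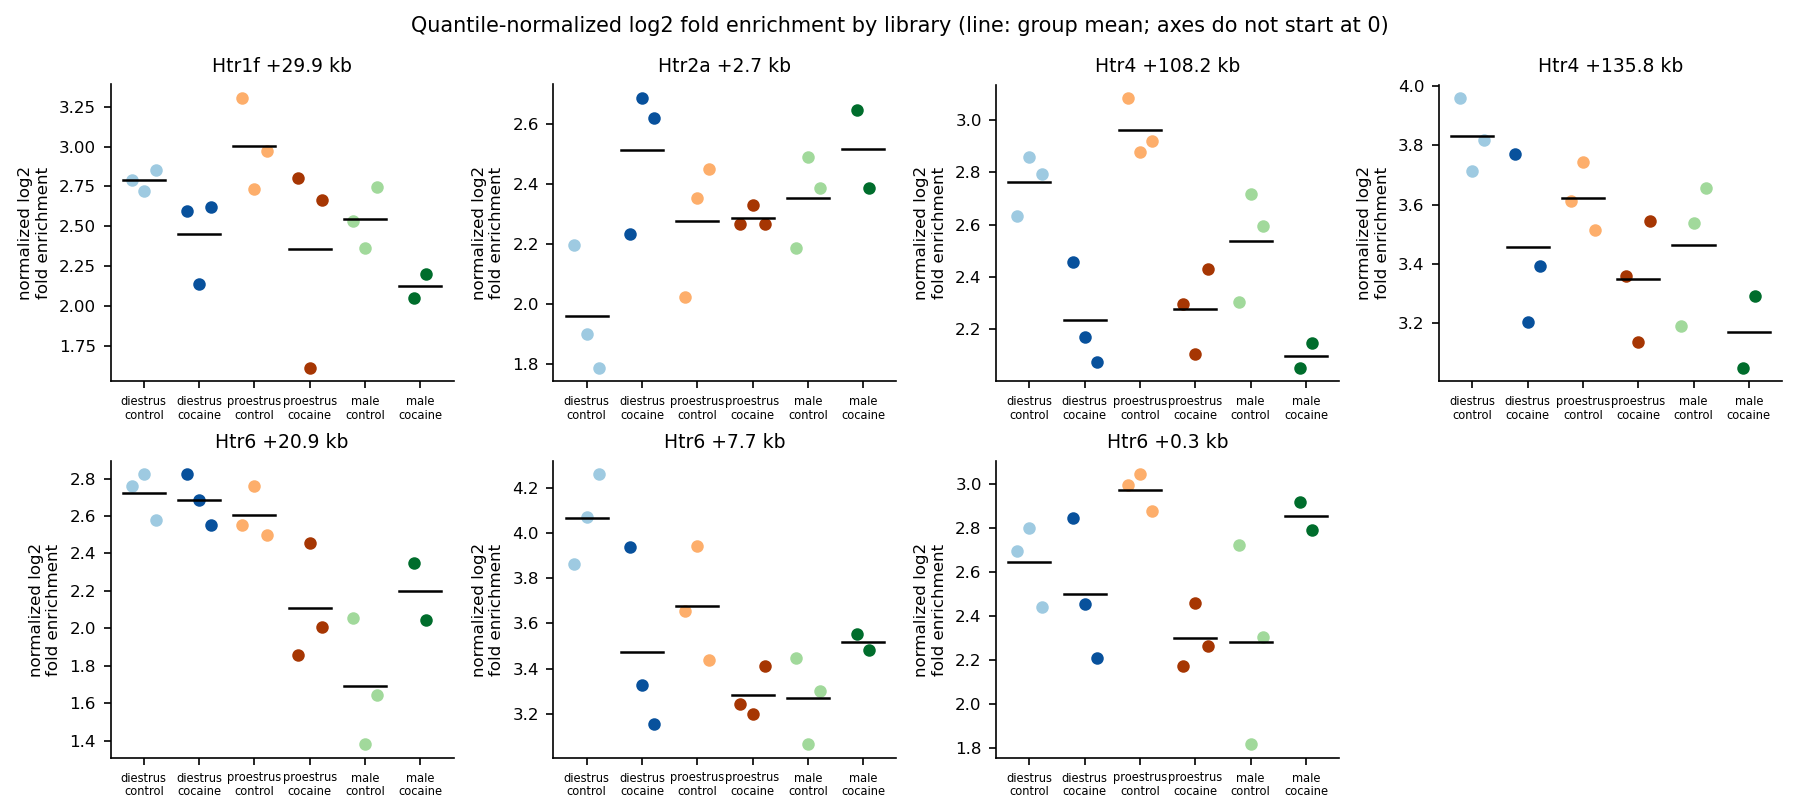
Quantile-normalized log2 fold enrichment in each library (points) with group means (lines) for the 7 regions that passed a limma test of cocaine or of its difference between sexes. Axes do not start at 0. At Htr4 +108.2 kb the cocaine libraries lie below the control libraries of the same sex and stage, and at Htr6 +20.9 kb the male controls (1.38 to 2.06) lie below both groups of female controls (2.50 to 2.82).

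Besides Htr6, 1 receptor region differed between control groups in limma. Htr4 +166.3 kb was 5.74, 4.54 and 3.95 in male controls and 7.36, 6.14 and 7.37 in diestrus controls (log2 difference -0.72 ± 0.15, SE, adjusted p = 0.00247), a 1.64-fold lower value that held without any 1 library. In all, 4 of 17 regions passed between male and diestrus controls (background 22.9%), 3 between male and proestrus controls (14.1%) and 0 between diestrus and proestrus controls (0.47%, with 1 at an unadjusted p under 0.05, beside 15.1% of all regions). After cocaine 0 of 17 passed between diestrus and proestrus (0.0%), males and diestrus (1.33%) or males and proestrus (2.1%). At an unadjusted p under 0.05 there were 1, 3 and 4, beside 6.35%, 18.2% and 22.5% of all regions, shares close to those of the members.

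By calls, 8 of 71 regions were called in every male control and no diestrus control library (11.3%, background 9.05%) and 1, Htr6 -11.6 kb, in the converse case (1.41%, background 3.02%). The 8 were Htr1d +31.5 kb, Htr1f +131.0 and +76.0 kb, Htr2a +18.9 kb and Htr4 +130.3, +141.9, +170.7 and +191.9 kb. Against proestrus controls there were 6 (8.45%, background 10.5%) and 0 (background 1.42%). These shares were near those of all kept regions, and the 2 comparisons share the male controls. With the same number of strongest peaks in each library 3 regions separated male from diestrus controls, in place of 9, with no share over all regions given for that setting.

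After cocaine, 1 region was called in both male libraries and in no diestrus library (1.41%, background 1.64%) and 4 in the converse case (5.63%, background 5.14%). Against proestrus there were 1 (1.41%, background 1.32%) and 4 (5.63%, background 6.24%). The region called in males alone was Htr1a -1.9 kb in both cases. Those called in females were Htr1f +101.4 and +100.2 kb in both cases, Htr1f +21.3 kb and Htr6 +23.6 kb in diestrus and Htr1f +172.3 kb and Htr6 -3.1 kb in proestrus. Between diestrus and proestrus 0 of 71 regions separated the control libraries (background 4.75%) and 0 the cocaine libraries (0.762%).

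Htr7, the third Gs-coupled receptor, gave no call. Its gene (ENSMUSG00000024798.15, minus strand, chr19:35958734-36057507) held 4 kept regions in 98.77 kb. The promoter region was 2.84, 3.46 and 2.18 in diestrus controls and 3.32, 3.90 and 3.45 with cocaine. In proestrus it was 2.64, 3.02 and 3.60 without and 2.90, 3.74 and 3.04 with cocaine, and in males 3.44, 3.72 and 4.17 without and 4.15 and 3.95 with cocaine. These values of cocaine and control libraries overlapped in each sex and stage. After normalization the male groups did not (log2 values of 1.61, 1.77 and 1.89 without and 2.27 and 2.25 with cocaine). No difference passed, with normalized log2 differences of 0.34 ± 0.17, -0.01 ± 0.17 and 0.50 ± 0.19 (SE, diestrus, proestrus and male, adjusted p = 0.184, 0.988 and 0.099, limma).

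Other genes of serotonin signalling were read at their promoters. Of 20 listed genes, 13 were called in all libraries and 3 in none (Tph1, a serotonin-synthesizing enzyme, Maob and the vesicular transporter Slc18a2). The serotonin transporter Slc6a4 was called in 5 libraries, the neuronal synthesizing enzyme Tph2 in 3, the decarboxylase Ddc in 11 and S100a10, which binds serotonin receptors, in 14. Of the 13 tested, 1 rose and 1 fell in diestrus (9.24% of all regions passed). Maoa, which degrades serotonin and lies on the X chromosome, rose by 0.65 (log2, adjusted p = 0.0263, limma). Arrb2, a receptor-desensitizing arrestin, fell by 0.65 (adjusted p = 0.0311). None passed in proestrus, in males or for the mean effect. The cocaine effect was lower in males than in females at Maoa (-0.82, adjusted p = 0.0211) and at Gnai1, an inhibitory G protein (-0.70, adjusted p = 0.0299), 2 of 13 beside 16.5% of all regions. The median log2 difference of the 13 was 0.17 in diestrus, 0.05 in proestrus and 0.05 in males.

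For the receptor promoters called in every library, the most similar profile over the 17 libraries among the 17 other promoters compared was described by Pearson's r of normalized values. Htr2a and Htr7 were each other's most similar (r = 0.713), Htr4 was nearest to Gnas (0.732), which encodes a stimulatory G protein, Htr6 to Arrb2 (0.556) and Htr1b to Maoa (0.447). The libraries share depth and sex and stage groups, and these values are a description over 17 libraries with no test.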

How the data were processed

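Per the methods, adapters were trimmed, BWA-MEM aligned the reads to mm10, and MACS2 then called peaks library by library, with versions and options not given in the sources used here. The deposited values were, for a peak, its score, its fold enrichment (a ratio of summit pileup to background) and the −log10 of its p and q. These are not read counts, so the authors' count model (featureCounts and DESeq2) was not run. Peaks on chromosomes 1 to 19 and X that overlapped by 1 bp were merged over the 17 libraries, and regions called by at least 2 libraries of 1 group were kept. Gene bodies were from GENCODE M21 and sequence from GRCm38, the build of the files. The score and the p and q values were used only for filters and ranks. The background pileup was recovered from the deposited fold enrichments, where 100% of summit values came out as whole multiples of 1 step (to within 0.05 of a step), and stands for depth, since total reads were not used here.

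Calls were tested with Fisher's exact test (regions called in 4 to 13 libraries) and called regions per locus with an exact permutation test, in Python 3.11.15 (numpy 2.4.6, scipy 1.17.1, pandas 2.3.3, pysam 0.24.0). The log2 of the fold enrichment of the strongest peak, quantile normalized over the 36847 regions called in all libraries, was fitted with limma 3.58.1 (R 4.3.3) over 6 group means. P-values were adjusted by Benjamini-Hochberg over all regions or loci. Named regions were promoters, the highest region of a locus, gained and lost regions (at most 10 a comparison) and regions past an adjusted p of 0.05, and a few others were named after their values were seen. Alternatives were peaks with −log10 q of at least 5, equal numbers of strongest peaks (75458), 50 bp of overlap, no filter, no flank, median centring, a replicate block, regions called in at least 14 libraries, and each library left out, and, added after seeing the data, normalization within 10 bins of GC content. Calculations were tested on simulated data. The genes, lists and motifs were chosen with earlier results of these data known. RefSeq promoter sequences matched 7 of the 9 genes.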

Additional observations from a re-analysis of the deposited data

Results flagged for a closer look

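At 3 regions of the Htr6 locus the effect of cocaine differed between males and females in limma's test of the difference itself. On the normalized log2 scale the male effect minus the mean female effect was 0.98 at the promoter region, 0.77 at Htr6 +20.9 kb and 0.74 at Htr6 +7.7 kb (adjusted p = 0.0122, 0.0264 and 0.0353). These were 3 of the 17 receptor regions tested, beside 16.5% of all regions, so the count was near the background. The male estimates were positive and did not pass on their own (0.57 at the promoter region, adjusted p = 0.0885), and the female estimates were negative, from -0.68 to -0.03. Before normalization the male mean fold enrichment at the promoter region was 5.91 without and 6.13 with cocaine. At +20.9 kb these means were 3.71 and 3.93, and at +7.7 kb they were 11.4 and 10.1. The sign of the male estimate at +7.7 kb thus rests on the normalization. The 5 male libraries differed in peak number (75458 and 87707 with cocaine, 134653 to 150009 without) and in cortical excitatory promoter calls (2 of 5 with cocaine, 5 of 5 without). Of the 7 medium spiny neuron marker promoters, 2 also had a higher cocaine effect in males than in females. These were Drd2 (0.98, adjusted p = 0.0050, limma) and Ppp1r1b (0.59, adjusted p = 0.0454), while 1, Penk, had a lower one (-0.61, adjusted p = 0.0299). The part of peak number, of cortical calls or of these marker changes in the Htr6 difference was not tested.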

How the results depend on the processing

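The counts below are of receptor regions or loci, first by other settings and then without 1 library. Apart from median centring, no genome-wide counts are given for these settings. A change in a count here thus cannot be told apart from a change over all regions or loci. With peaks of −log10 q of at least 5, 1 region was gained in diestrus, 2 were gained and 2 lost in proestrus, and 0 gained in males. With equal numbers of strongest peaks, 2 were gained in diestrus, 2 gained and 4 lost in proestrus, 2 lost in males, and 3 separated male from diestrus controls. With no flank, 0 were lost in proestrus, 0 gained in males, and 3 separated male cocaine libraries from diestrus and 3 from proestrus cocaine libraries. In limma, median centring gave 1 region in males. Regions called in at least 14 libraries gave 1 in proestrus. Normalization within GC bins gave 6 for the mean effect, 5 between male and proestrus controls and 1 between male and diestrus cocaine libraries.

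Deviations of same-numbered libraries correlated at -0.228, 0.00566 and -0.143 in diestrus, 0.149 and 0.0967 in proestrus (replicate 4 has no partner) and 0.00589 and 0.00391 in males. For different numbers the values were -0.108 to 0.213 in diestrus and -0.206 to 0.143 in proestrus. Deviations within groups of 2 or 3 libraries are tied to one another, so these values cannot settle whether the replicate numbers pair the libraries. With the replicate number as a block, 1 region passed in proestrus and 1 for the difference between male and female effects, and Htr6 +26.8 kb no longer passed between male and proestrus controls (-0.56, adjusted p = 0.0528).

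Without each library in turn, regions gained and lost ranged from 0 to 1 and 0 to 2 in diestrus (2 lost without diestrus cocaine 1), 1 to 3 and 1 to 4 in proestrus (3 gained without proestrus cocaine 2, 4 lost without proestrus control 1) and 1 to 3 and 12 to 18 in males (1 gained without either cocaine library). Separated regions ranged from 0 to 2 between diestrus and proestrus, without or with cocaine, 9 to 14 (most without male control 1) and 6 to 11 (without proestrus control 1 or male control 1) between male and diestrus or proestrus controls, and 4 to 10 (without diestrus cocaine 3 or male cocaine 1) and 5 to 11 (without male cocaine 1) after cocaine. Loci past the threshold ranged from 0 to 3. In limma the counts ranged from 0 to 6 in diestrus (6 without diestrus cocaine 1, 0 without diestrus control 2 or 3 or cocaine 2 or 3), 0 to 5 in proestrus (0 without proestrus control 1, 5 without proestrus cocaine 2), 0 to 2 in males (2 without male control 1), 1 to 8 for the mean effect (8 without diestrus cocaine 1), 0 to 5 for the difference between sexes (0 without male control 2 or male cocaine 1), 3 to 5 and 1 to 5 between male and diestrus or proestrus controls, and 0 to 3 between male and proestrus cocaine libraries.

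Some differences in called regions per locus that passed no test changed sign. They became 0.333 at Htr7 with −log10 q of at least 5, 1.78, 0.278, 0.222 and 0.5 at Htr1f, Htr2a, Htr4 and Htr7 with equal peak numbers, 0.167 at Htr2a with no filter and 0.111 at Htr1d with no flank. Leaving out 1 library gave -0.611 to 0.111 at Htr7 (above 0 without male control 2 or 3), -1.22 to 0.111 at Htr1f and up to 0.111 at Htr2a (both above 0 without male cocaine 2). The causes were not tested. Htr6 +0.3 kb in proestrus did not pass with regions of at least 14 libraries (-0.66, adjusted p = 0.0542) or GC bins (-0.52, adjusted p = 0.0924). With regions of at least 14 libraries neither did the difference between sexes at Htr6 +7.7 kb (0.69, adjusted p = 0.0593) nor Htr6 +26.8 kb between male and proestrus controls (-0.55, adjusted p = 0.058). Median centring moved the share of higher among called regions genome-wide from 40.8% to 55.8% for cocaine in males, 49.6% to 63.3% for the difference between sexes, 52.6% to 40.4% between male and proestrus controls and 39.0% to 50% after cocaine. Counts of 2 or 3 libraries a group, and low summit pileups, limit all calls.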
